A study of Mus musculus with 15 samples.

Results

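Tnc, Thbs1, Spp1, Fn1, Pdpn, Axl, Cd44, Plaur, Fhl2 and Vim are 10 genes of partial epithelial-mesenchymal transition (partial EMT) and of the matricellular matrix, followed here in mouse mammary organoids beside FGF10-soaked or albumin-soaked beads. They were chosen by name, with results of these libraries already known, and are 10 of the 54456 genes in the count table and of the 18140 genes tested. All 10 passed the filter on low counts. The libraries came from wild-type mammary gland epithelial organoids grown in DMEM/F12 medium with L-alanyl-L-glutamine, ITS and antibiotics. In the FGF10 36 h and FGF10 72 h groups the beads carried FGF10, and in the BSA 36 h and BSA 72 h groups they carried bovine serum albumin (BSA). The last group was collected at 0 h. There were 3 libraries in each of the 5 groups, all of bulk RNA, so fewer cells of a type and less RNA per cell cannot be told apart. The study asked whether mammary epithelium that moves as a group passes through EMT. Strain, sex and age are not given in the sources used here.

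Partial EMT names a state in which epithelial cells keep their junctions and keratins while they switch on some genes of motile, mesenchymal cells. Matricellular proteins are secreted into the matrix and tune how cells attach to it, rather than building it. In the mammary gland such genes are known from branching ducts, involution and the invading edge of tumours, and FGF10 from the fat pad draws epithelial buds outward through its receptor on the epithelium. Several of the genes are known in other systems as targets of serum response factor, which binds CArG boxes, of AP-1, of ETS factors downstream of ERK, or of the YAP partners TEAD.

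The start sites of 8 of the genes were matched to 11 promoters in RefSeq (mouse GRCm38.p6). The 3 that held a CArG box or an AP-1 site are shown, and belong to Fhl2 and Plaur. These genes differ in how they moved with FGF10 and with time, and a link of the motifs to this was not tested. Each line gives the 150 bases before the start site, 5′ to 3′ on the strand of the gene, with the matched letters in capitals. Both Fhl2 stretches lie on the minus strand, at chr1:43196762-43196911 and chr1:43163962-43164111, with CArG boxes starting at -96 and -31 from the start site. The Plaur stretch lies on the plus strand at chr7:24462333-24462482, with an AP-1 site at -69.
Fhl2, first start site: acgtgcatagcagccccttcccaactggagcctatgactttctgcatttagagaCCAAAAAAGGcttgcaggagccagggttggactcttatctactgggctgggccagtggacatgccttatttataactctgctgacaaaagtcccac
Fhl2, other start site: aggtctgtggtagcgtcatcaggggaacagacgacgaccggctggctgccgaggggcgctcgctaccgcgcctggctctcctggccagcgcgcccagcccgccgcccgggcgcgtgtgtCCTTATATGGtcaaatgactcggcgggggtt
Plaur: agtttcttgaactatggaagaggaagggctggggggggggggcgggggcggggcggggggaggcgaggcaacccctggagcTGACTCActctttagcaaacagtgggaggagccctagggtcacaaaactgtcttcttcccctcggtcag
The windows searched ran from 250 bases before to 50 bases after the start site on both strands. An ETS motif (CCGGAA) lay at -106 in Vim and at -233 in 1 of the Spp1 promoters, and a TEAD motif (GGAATG) at -233 in Axl. None of the 4 motifs lay in the windows of Cd44, Tnc, Pdpn or the other Spp1 start site. Of all 32851 promoters in that table, 1.63% held a CArG box, 7.81% the AP-1 letters TGANTCA, 14.7% the TEAD letters and 14.9% the ETS letters, the last 2 of which share GGAA. These matches describe the letters only.

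Library depth ran from 11965322 to 24261233 counts. The 10 epithelial markers, keratins and junction genes among them, were all present in every group, and their summed level ran from 14367 to 30899 CPM (counts scaled to library size) across the libraries. FGF10 36 h replicate 4 stood apart on the third principal component, with a score of 63.6 and 1.11% mitochondrial counts, where the other libraries held 2.02% to 4.55%. BSA 72 h held libraries numbered 2_1 and 2_2, which may come from 1 culture. Nothing says that the other libraries came from separate animals, so p-values measure the spread between these libraries, which may be technical. Levels below are CPM scaled by the trimmed mean of M-values, and a gene is called changed where edgeR's quasi-likelihood test gave a Benjamini-Hochberg adjusted p under 0.05 over all 18140 genes.

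With FGF10, 5 of the 10 genes were called higher than with BSA at 36 h, and the same 5 at 72 h: Tnc, Pdpn, Spp1, Fhl2 and Axl. None was called lower at either time. Thbs1 lay higher with FGF10 at both times without being called, and Cd44 at both times and Plaur at 72 h lay close to their BSA levels. Of all genes tested, 2.34% were called at 36 h, 0.954% higher and 1.39% lower. At 72 h 5.99% were called, 3.01% higher and 2.98% lower. Libraries of the arms did not overlap, with FGF10 higher, for 5 of the 10 genes at 36 h and 6 at 72 h, where 9.88% and 21.9% of all genes did so, and with FGF10 lower for 0 and 2 of them, where 9.53% and 21.7% did so. The genes were chosen with this contrast known, so nothing is read from these counts. Their median log2 difference was 0.92 at 36 h and 0.67 at 72 h, beside 0.00 and -0.01 over all genes tested.

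**Figure D1:**
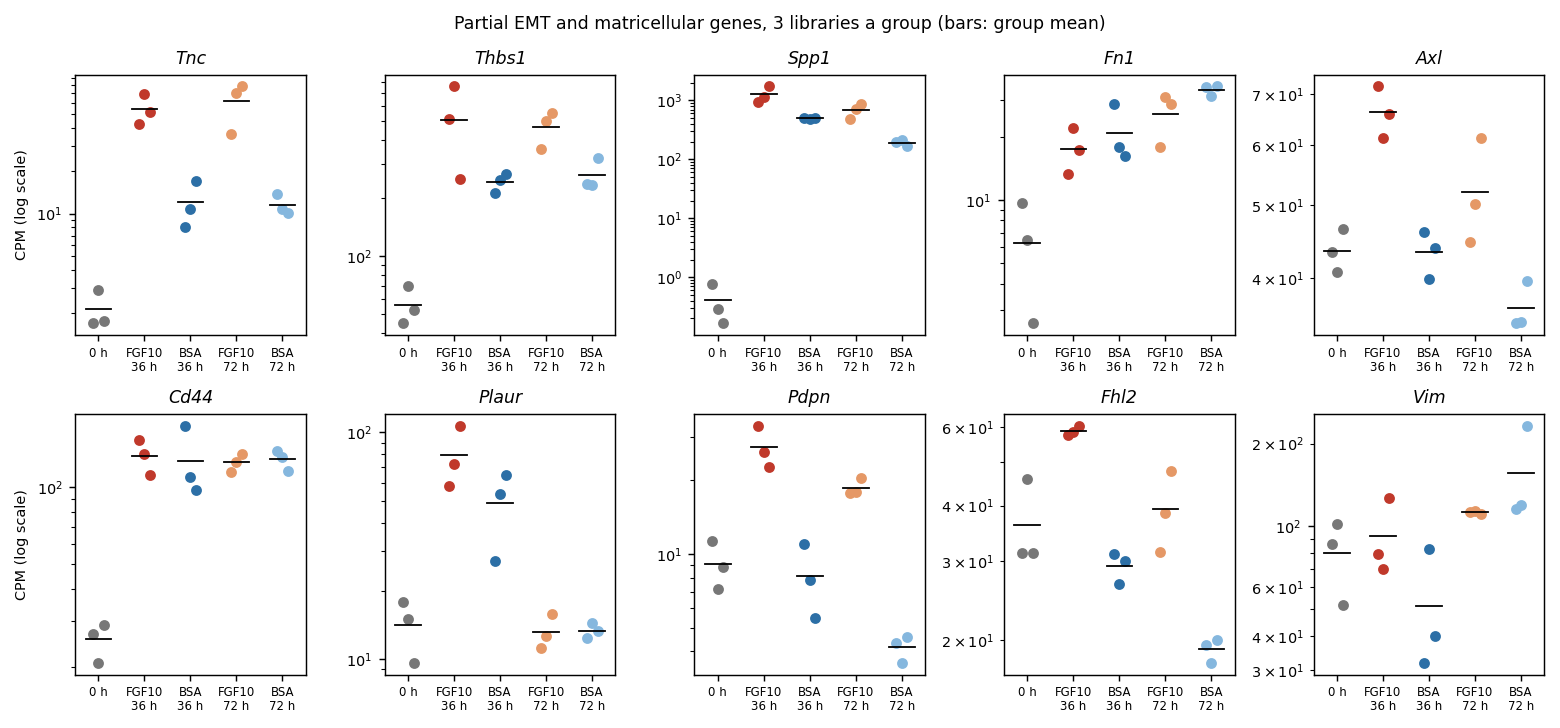
CPM (log scale) of the 10 genes in every library, with the 3 libraries of each group as points and the group mean as a bar, from 0 h through 36 h to 72 h. Tnc, Pdpn, Spp1, Fhl2 and Axl lie higher in every FGF10 library than in every BSA library of the same time, while Cd44 differs between 0 h and all later groups and Plaur is high at 36 h.

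The matrix ligands were described first. Tnc encodes tenascin-C, a matricellular glycoprotein of wound edges and tumour stroma that loosens cell attachment to fibronectin (minus strand, chr4:63878022-63965252 in the coordinates of the count table, for which the submitters' processing notes list GRCm39). It measured 42.6, 68.8 and 51.7 CPM in the FGF10 36 h libraries, against 8.03, 10.8 and 17.1 CPM in the BSA 36 h libraries. At 72 h it measured 36.1, 69.9 and 78.3 CPM with FGF10 and 13.8, 10.7 and 10.045 CPM with BSA. The lowest FGF10 library lay above the highest BSA library at both times. The log2 difference was 2.18 ± 0.32 (SE) at 36 h, or 4.54-fold, and 2.41 ± 0.33 at 72 h, or 5.32-fold. At 0 h Tnc measured 1.69, 2.90 and 1.76 CPM, below every later library. BSA libraries were thus also higher than 0 h libraries, by 2.55 ± 0.37 at 36 h and 2.50 ± 0.37 at 72 h, and FGF10 libraries by 4.74 ± 0.38 and 4.91 ± 0.38. All of these Tnc differences were called, and the FGF10 against BSA calls held in all 23 alternatives.

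Thbs1 encodes thrombospondin-1, a matricellular protein that binds CD47 and CD36 and activates latent TGF-beta (plus strand, chr2:117942357-117957614). It measured 512.7, 760.5 and 250.6 CPM in the FGF10 36 h libraries, against 212.2, 249.3 and 266.7 CPM in the BSA 36 h libraries. The groups overlapped through FGF10 36 h replicate 4, whose 250.6 CPM lay among the BSA values. At 72 h Thbs1 measured 359.7, 500.8 and 549.8 CPM with FGF10 and 237.5, 233.9 and 320.9 CPM with BSA, with no overlap. The log2 differences, 1.07 ± 0.31 at 36 h and 0.83 ± 0.31 at 72 h, were not called. Both were called by limma voom, and that at 36 h by DESeq2. Leaving out FGF10 36 h replicate 4, which stood apart, gave a difference of 1.39 at 36 h and 0.83 at 72 h, both called. The 72 h value was thus unmoved, while calls over all genes at 72 h rose from 1087 to 1950. The 72 h difference was also called with only the compared groups in the fit (0.83). Over the 23 alternatives the difference ran from 0.65 to 1.39 at 36 h and from 0.71 to 1.00 at 72 h. At 0 h Thbs1 measured 44.6, 69.6 and 52.2 CPM. Every later group was called higher than 0 h, by 3.20 ± 0.34 for FGF10 36 h, 2.13 ± 0.32 for BSA 36 h, 3.09 ± 0.33 for FGF10 72 h and 2.25 ± 0.32 for BSA 72 h.

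Spp1 encodes osteopontin, a secreted phosphoprotein that binds integrins and CD44 and that macrophages as well as epithelial cells make (plus strand, chr5:104582984-104588916). It was all but silent at 0 h and among the highest of the 10 genes afterwards. The FGF10 36 h libraries measured 924, 1143 and 1728 CPM, against 494.2, 488.3 and 498.3 CPM in the BSA 36 h libraries. At 72 h the values were 488, 704 and 858 CPM with FGF10 and 199.2, 209.5 and 169.1 CPM with BSA. The groups did not overlap at either time, and the highest FGF10 36 h value was that of replicate 4. The difference was 1.36 ± 0.28 at 36 h, or 2.56-fold, and 1.83 ± 0.29 at 72 h, or 3.55-fold. Both were called. The 36 h call was lost without BSA 36 h replicate 2, at 1.35, or replicate 3, at 1.37, and with only the compared groups in the fit, at 1.35. The 72 h call held in all 23 alternatives.

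At 0 h Spp1 had 18 counts in replicate 1 and 3 counts in each of the other two libraries, or 0.760, 0.290 and 0.165 CPM. Its log2 difference from 0 h was 11.45 ± 0.46 for FGF10 36 h, 10.09 ± 0.44 for BSA 36 h, 10.56 ± 0.45 for FGF10 72 h and 8.73 ± 0.43 for BSA 72 h. These sizes rest on 0 h replicate 1: without it they were 12.49, 11.13, 11.60 and 9.77, and all were called either way. Of the exon bases of Spp1, 18.75% are shared with the predicted gene Gm42793 on the same strand, and fragments over both were left out of the count. The summed level of 12 macrophage and leukocyte markers ran from 273 to 505 CPM in FGF10 36 h and from 257 to 640 CPM in BSA 36 h, which overlap. At 72 h it ran from 333 to 537 CPM with FGF10 and from 570 to 759 CPM with BSA, with no overlap. All 12 markers were above 3 counts in every group. At 0 h their sum ran from 496 to 644 CPM. Much of the sum was Cd14, with group means of 220.6 to 308.8 CPM, so it hides changes of the single markers. Against 0 h, 9 of the 12 were called lower and 0 higher in FGF10 36 h, and 5 lower and 2 higher in BSA 72 h. With FGF10 against BSA, 0 were called at 36 h, and 6 lower and 0 higher at 72 h. The part of these cells in the Spp1 values was not tested.

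Fn1 encodes fibronectin, the matrix glycoprotein most often used as a mesenchymal marker (minus strand, chr1:71624679-71692359). It measured 13.3, 22.1 and 17.4 CPM in the FGF10 36 h libraries, against 28.5, 17.9 and 16.3 CPM in the BSA 36 h libraries. The 72 h libraries measured 17.8, 30.8 and 28.8 CPM with FGF10 and 34.7, 31.3 and 34.8 CPM with BSA. The groups overlapped at 36 h, and at 72 h every FGF10 library lay below every BSA library. The differences of -0.25 ± 0.36 at 36 h and -0.38 ± 0.36 at 72 h were not called. At 0 h Fn1 measured 9.67, 6.48 and 2.59 CPM. All later groups were called higher than 0 h, from 1.49 ± 0.38 for FGF10 36 h to 2.42 ± 0.39 for BSA 72 h, and the BSA 36 h call was lost with only the compared groups in the fit (1.75). The 36 h difference between the arms was 0.05 without BSA 36 h replicate 1, the opposite sign.

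Pdpn encodes podoplanin, a mucin-like membrane glycoprotein that binds ezrin and moesin and is found at the front of collectively invading carcinoma cells (minus strand, chr4:142994001-143026134). It measured 33.4, 26.1 and 22.6 CPM in the FGF10 36 h libraries, against 11.002, 7.79 and 5.47 CPM in the BSA 36 h libraries. The values of Pdpn at 72 h were 17.7, 17.9 and 20.3 CPM with FGF10 and 4.31, 3.59 and 4.56 CPM with BSA. The groups were well apart at both times. The difference was 1.76 ± 0.24 at 36 h, or 3.38-fold, and 2.16 ± 0.24 at 72 h, or 4.48-fold, and both calls held in all 23 alternatives. At 0 h Pdpn measured 11.2, 7.16 and 8.80 CPM, between the arms of 72 h and overlapping the BSA 36 h libraries. FGF10 was called higher than 0 h at 36 h (1.58 ± 0.23) and at 72 h (1.03 ± 0.23). BSA lay at -0.18 ± 0.24 at 36 h, which was not called, and was called lower than 0 h at 72 h (-1.13 ± 0.24). The gap between the arms at 72 h thus lay on both sides of the starting level.

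The receptors split. Axl encodes a receptor tyrosine kinase for GAS6 that is linked to invasion and drug tolerance in carcinoma (minus strand, chr7:25456698-25488130). It measured 71.7, 61.3 and 65.9 CPM in the FGF10 36 h libraries, against 46.1, 39.9 and 43.8 CPM in the BSA 36 h libraries. Its 72 h values were 44.6, 50.1 and 61.3 CPM with FGF10 and 34.8, 34.9 and 39.7 CPM with BSA. There was no overlap at either time, although the gap was small. The difference was 0.62 ± 0.13 at 36 h, or 1.53-fold, and 0.51 ± 0.13 at 72 h, or 1.43-fold, and both were called. The 36 h call was lost without BSA 36 h replicate 2 (0.56) or 3 (0.62), without FGF10 36 h replicate 1 (0.56) and with only the compared groups in the fit (0.61). The 72 h call was lost without BSA 72 h replicate 2_1 (0.48), 2_2 (0.48) or 3 (0.57), without FGF10 72 h replicate 3 (0.54) or 4 (0.38), with 2_1 and 2_2 summed (0.48) and with no filter on low counts (0.51). At 0 h Axl measured 43.3, 40.7 and 46.4 CPM, within the range of the BSA 36 h libraries or just above it. FGF10 36 h was the one later group called different from 0 h, at 0.61 ± 0.13.

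Cd44 encodes the hyaluronan receptor that also binds osteopontin and marks basal and stem-like mammary cells (minus strand, chr2:102641486-102732010). It measured 151.9, 133.7 and 111.5 CPM in the FGF10 36 h libraries, against 172.9, 108.7 and 96.9 CPM in the BSA 36 h libraries. Later, at 72 h, they were 114.6, 124.8 and 134.6 CPM with FGF10 and 137.6, 130.7 and 115.2 CPM with BSA. The groups overlapped widely at both times. The differences were 0.07 ± 0.20 at 36 h and -0.04 ± 0.20 at 72 h. That at 36 h took the opposite sign without BSA 36 h replicate 2 (-0.03) or 3 (-0.09) or FGF10 36 h replicate 1 (-0.04). At 0 h Cd44 measured 26.8, 20.7 and 29.1 CPM, and every later group was called higher, by 2.28 to 2.37 on the log2 scale. The 4 later groups had means of 124.6 to 132.4 CPM, a near level plateau.

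Plaur encodes the receptor of urokinase, which gathers plasmin formation at the cell surface (plus strand, chr7:24161909-24175393). Its high time was 36 h. The FGF10 36 h libraries measured 57.9, 72.2 and 107.0 CPM, against 27.2, 53.6 and 64.9 CPM in the BSA 36 h libraries. At 72 h the values were 11.2, 12.6 and 15.7 CPM with FGF10 and 12.3, 14.4 and 13.3 CPM with BSA, close to the 17.8, 14.9995 and 9.63 CPM of the 0 h libraries. The arms overlapped at both times, and the differences of 0.70 ± 0.30 at 36 h and -0.02 ± 0.31 at 72 h were not called. Against 0 h, FGF10 36 h was called higher by 2.48 ± 0.32 and BSA 36 h by 1.78 ± 0.31. The 72 h groups lay at -0.10 ± 0.31 with FGF10 and -0.08 ± 0.31 with BSA.

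Of the cytoskeletal and LIM genes, Fhl2 encodes a LIM-only adaptor at focal adhesions and in the nucleus that shuttles in response to RhoA (minus strand, chr1:43162234-43236144). Its promoters are the 2 shown above with CArG boxes. It measured 57.6, 58.6 and 60.4 CPM in the FGF10 36 h libraries, against 31.1, 26.7 and 30.1 CPM in the BSA 36 h libraries. By 72 h the values were 31.5, 38.5 and 47.9 CPM with FGF10 and 19.5, 17.8 and 19.97 CPM with BSA. There was no overlap, and the FGF10 36 h libraries agreed to within 3 CPM. The difference was 1.01 ± 0.16 at 36 h, or 2.01-fold, and 1.04 ± 0.17 at 72 h, or 2.06-fold, and both calls held in all 23 alternatives. At 0 h Fhl2 measured 31.3, 46.0 and 31.4 CPM. These values lay between the arms of 36 h and overlapped the FGF10 72 h libraries. FGF10 36 h was called higher than 0 h (0.71 ± 0.16) and BSA 72 h was called lower (-0.92 ± 0.17). FGF10 72 h (0.12 ± 0.16) and BSA 36 h (-0.30 ± 0.16) were not called.

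Vim encodes vimentin, the intermediate filament of mesenchymal cells that fibroblasts, endothelial cells and leukocytes also carry in abundance (plus strand, chr2:13578738-13587637). It measured 79.6, 70.0 and 127.2 CPM in the FGF10 36 h libraries, against 32.0, 82.5 and 40.1 CPM in the BSA 36 h libraries. For Vim at 72 h the values were 112.4, 114.2 and 110.7 CPM with FGF10 and 115.6, 119.6 and 232.1 CPM with BSA. The groups overlapped at 36 h, and at 72 h the FGF10 libraries lay just below the lowest BSA library. The differences of 0.84 ± 0.38 at 36 h and -0.47 ± 0.38 at 72 h were not called. At 0 h Vim measured 86.2, 102.2 and 51.9 CPM, and edgeR called no later group different from 0 h, while DESeq2 called BSA 72 h higher (0.96). Single libraries moved these values. The 36 h difference was 1.36 with BSA 36 h replicate 2 left out and 0.54 with FGF10 36 h replicate 4 left out, and the 72 h difference was -0.07 with BSA 72 h replicate 3 left out. Leaving out BSA 36 h replicate 2 also made BSA 36 h called lower than 0 h (-1.15) and BSA 72 h called higher (0.96).

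The library with the highest Vim was also the one with the highest endothelial marker sum in 4 of 5 groups. With the fibroblast markers this held in 4 of 5 groups as well, and with the macrophage and leukocyte markers, much of whose sum was Cd14, in 1. The fibroblast match in FGF10 72 h rests on nearly level Vim values, 110.7 to 114.2 CPM. Among only 3 libraries a match arises easily, so nothing is read from these counts. BSA 72 h replicate 3, with 232.1 CPM of Vim, had 230.6 CPM of the 10 endothelial and 161.5 CPM of the 12 fibroblast markers. The other BSA 72 h libraries had 96.2 and 97.2 CPM of endothelial and 94.2 and 92.9 CPM of fibroblast markers. In FGF10 36 h, replicate 4 had 32.5 CPM of endothelial and 50.7 CPM of fibroblast markers, the highest of its group beside a Vim level of 127.2 CPM. Over whole groups at 72 h, the endothelial sum ran from 13.7 to 33.2 CPM with FGF10 and from 96.2 to 230.6 CPM with BSA, and the fibroblast sum from 29.7 to 70.7 CPM with FGF10 and from 92.9 to 161.5 CPM with BSA. The adipocyte sum over 8 markers ran from 8.89 to 68.3 CPM with FGF10 and from 410.6 to 415.3 CPM with BSA, with Pck1 at 0 in both. Pericyte and smooth muscle markers ran from 80.8 to 98.6 CPM with FGF10 and from 128.9 to 178.7 CPM with BSA. The part of these markers in the Vim and Fn1 values was not tested. Tnc, Pdpn, Spp1, Fhl2 and Axl were higher in the FGF10 72 h libraries, where these marker sums were lower. The epithelial marker sum was higher there too, at 25512 to 30233 CPM with FGF10 and 14897 to 15972 CPM with BSA, and 2 of its 10 markers were called higher. Most of this gap came from 2 keratins of basal cells. At 72 h Krt14 averaged 11960 CPM with FGF10 and 3666 CPM with BSA, and Krt5 3044 and 1286 CPM. Krt8 averaged 3462 CPM with FGF10 and 2377 CPM with BSA, and Krt18 4750 and 4544 CPM. Cldn4 alone had a lower mean with FGF10, at 56.5 CPM, against 64.5 CPM with BSA. The mitochondrial share of counts ran from 3.90% to 4.55% in FGF10 72 h and from 2.21% to 2.60% in BSA 72 h. The part of the epithelial markers and of the mitochondrial share in the 72 h differences of the 10 genes was not tested.

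**Figure D2:**
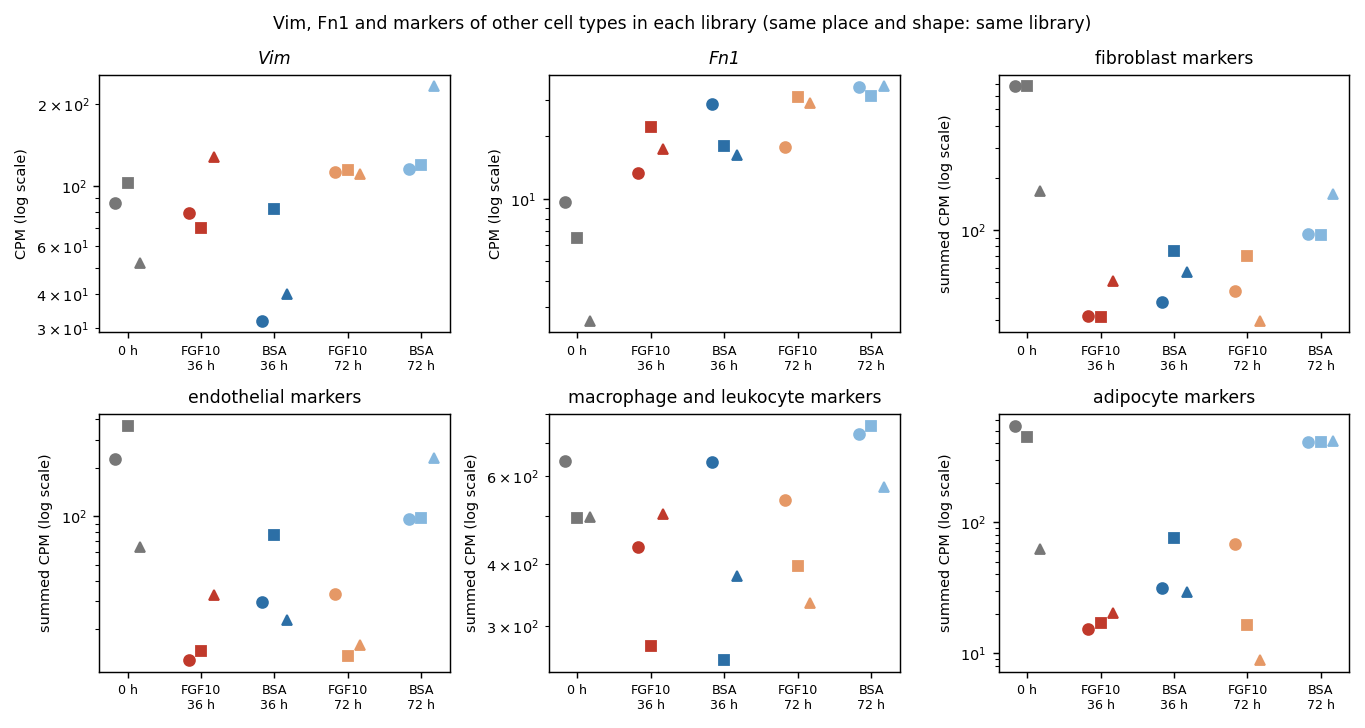
Vim, Fn1 and the summed level of marker lists (CPM, log scale) in each library, with libraries at the same place and of the same shape in every panel. The BSA 72 h library with 232.1 CPM of Vim is the one with 230.6 CPM of endothelial markers, and the FGF10 72 h libraries lie below those of BSA 72 h for fibroblast, endothelial, macrophage and adipocyte markers.

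**Figure D3:**
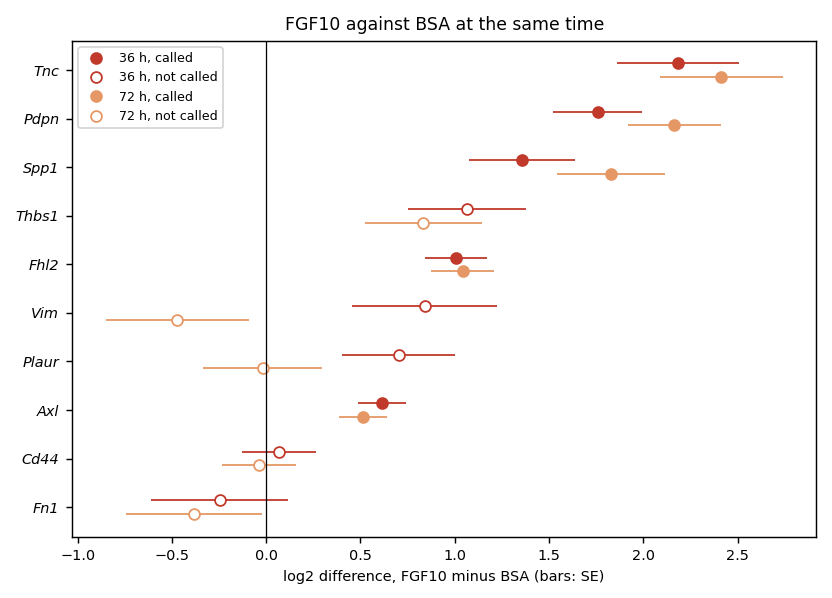
log2 difference, FGF10 minus BSA, of the 10 genes at 36 h and 72 h, with bars for the standard error and filled points for calls. Tnc, Pdpn, Spp1, Fhl2 and Axl are filled at both times, and Vim is 0.84 at 36 h and -0.47 at 72 h, open at both.

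The change of the FGF10 effect between the times, which is the 72 h difference minus the 36 h difference, was tested in the same fit. None of the 10 genes was called by edgeR, limma voom or DESeq2, and 1 had an unadjusted p under 0.05 in edgeR. Over all genes tested, 0% were called by edgeR, 0% by limma voom and 0.0992% by DESeq2. An unadjusted p under 0.05 in edgeR was seen in 5.5% of all genes. Vim had the largest change, -1.31 ± 0.54, followed by Plaur at -0.72 ± 0.43. The genes called at both times changed little: Spp1 by 0.47 ± 0.39, Pdpn by 0.41 ± 0.33, Tnc by 0.23 ± 0.44, Axl by -0.10 ± 0.18 and Fhl2 by 0.04 ± 0.23. A change that was not called is not shown to be absent, since the standard errors ran from 0.18 to 0.54.

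Against 0 h, 9 of the 10 genes were called higher in FGF10 36 h, all but Vim, and 0 lower. In BSA 36 h, 6 were called higher (Tnc, Thbs1, Spp1, Fn1, Cd44 and Plaur). In FGF10 72 h, 6 were called higher (Tnc, Thbs1, Spp1, Fn1, Cd44 and Pdpn). In BSA 72 h, 5 were called higher (Tnc, Thbs1, Spp1, Fn1 and Cd44) and 2 lower (Fhl2 and Pdpn). These 4 comparisons share the 0 h libraries. Of all genes tested, 39.8% were called in FGF10 36 h against 0 h (19.3% higher, 20.5% lower), 27.1% in BSA 36 h (12.7% higher, 14.4% lower), 29.9% in FGF10 72 h (13.8% higher, 16% lower) and 25.2% in BSA 72 h (12.2% higher, 13% lower). The median log2 difference of the 10 genes was 1.98 in FGF10 36 h, 1.76 in BSA 36 h, 1.53 in FGF10 72 h and 1.61 in BSA 72 h, beside medians of -0.02 to 0.01 over all genes. Ranges that did not overlap those of 0 h followed the calls closely: in BSA 36 h they were higher for 6 of the genes and lower for 1, Fhl2, where 20.2% and 20.6% of all genes were. The 4 ligands and Cd44 were higher than at 0 h in every later group, whichever bead was present.

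Within the arms, fewer genes moved between 36 h and 72 h. Plaur was called lower in FGF10 72 h than in FGF10 36 h, by -2.58 ± 0.32, or 5.998-fold, and was the 1 gene of the 10 called there, where 1.91% of all genes were called, 1.42% higher and 0.491% lower. That call held in all 23 alternatives. Fhl2 (-0.58 ± 0.16), Pdpn (-0.55 ± 0.23), Spp1 (-0.89 ± 0.28) and Axl (-0.35 ± 0.13) had non-overlapping, lower values in FGF10 72 h without being called by edgeR. Non-overlapping lower values were seen in 9.9% of all genes. The Fhl2 difference was called without 0 h replicate 2 (-0.58) or FGF10 72 h replicate 4 (-0.75), by limma voom (-0.63) and by DESeq2 (-0.60). Limma voom also called Pdpn (-0.68), and DESeq2 called Spp1 (-0.91).

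In the BSA arm, Plaur (-1.86 ± 0.31) and Spp1 (-1.36 ± 0.28) were called lower at 72 h than at 36 h, where 0.469% of all genes were called, 0.325% higher and 0.143% lower. Vim lay 1.60 ± 0.39 above its 36 h level with no overlap, and was called by limma voom and DESeq2 but not by edgeR. Fn1 (0.69 ± 0.36) also lay higher with no overlap, and was called by limma voom only. Non-overlapping higher values were seen in 14.3% of all genes. The Plaur call was lost without BSA 36 h replicate 2 (-1.79) or 3 (-1.60), without BSA 72 h replicate 2_1 (-1.80), 2_2 (-1.92) or 3 (-1.87), without FGF10 72 h replicate 3 (-1.87) and with 2_1 and 2_2 summed (-1.87). The Spp1 call was lost without any 1 of the BSA 36 h or BSA 72 h libraries, without 0 h replicate 2, replicate 3 of FGF10 36 h or replicate 2 or 3 of FGF10 72 h (-1.42 to -1.27), and with 2_1 and 2_2 summed (-1.40) or DESeq2 size factors (-1.34). As in the FGF10 arm, Fhl2 (-0.62 ± 0.17), Pdpn (-0.96 ± 0.24) and Axl (-0.25 ± 0.13) had non-overlapping, lower values at 72 h without being called by edgeR. With Plaur and Spp1, 5 of the 10 genes did so, where 16.5% of all genes did. Pdpn was called without 0 h replicate 1 or FGF10 36 h replicate 4, at -0.96 in each. It was also called with no filter on low counts (-0.97), by limma voom (-0.69) and by DESeq2 (-0.95). Fhl2 was called by limma voom (-0.64) and with only the compared groups in the fit (-0.60).

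Levels can be set side by side between genes per kilobase of exon. At 0 h the highest of the 10 genes were Fhl2 at 19.1 ± 4.45 and Vim at 16.9 ± 5.41 CPM per kb (SD, n = 3), and the lowest were Tnc at 0.273 ± 0.088 and Spp1 at 0.246 ± 0.190 CPM per kb. In all later groups Spp1 was the highest. It reached 768 ± 252 CPM per kb in FGF10 36 h, 299.5 ± 3.04 in BSA 36 h, 415 ± 113 in FGF10 72 h and 116.9 ± 12.7 in BSA 72 h. Thbs1 came next in each later group, at 83.6 ± 42.0 CPM per kb in FGF10 36 h, 39.97 ± 4.58 in BSA 36 h, 77.4 ± 16.3 in FGF10 72 h and 43.5 ± 8.11 in BSA 72 h. Fn1 was the lowest in both FGF10 groups, at 1.51 ± 0.38 CPM per kb at 36 h and 2.21 ± 0.60 at 72 h. In the BSA groups Tnc was the lowest, at 1.54 ± 0.60 CPM per kb at 36 h, within the spread of Fn1, and 1.48 ± 0.26 at 72 h. Exon bases shared with other genes were 3.43% for Thbs1, 2.50% for Fn1 and 2.26% for Tnc, and 0% for Axl, Cd44, Plaur, Pdpn, Fhl2 and Vim. The counting took no account of strand.

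**Figure D4:**
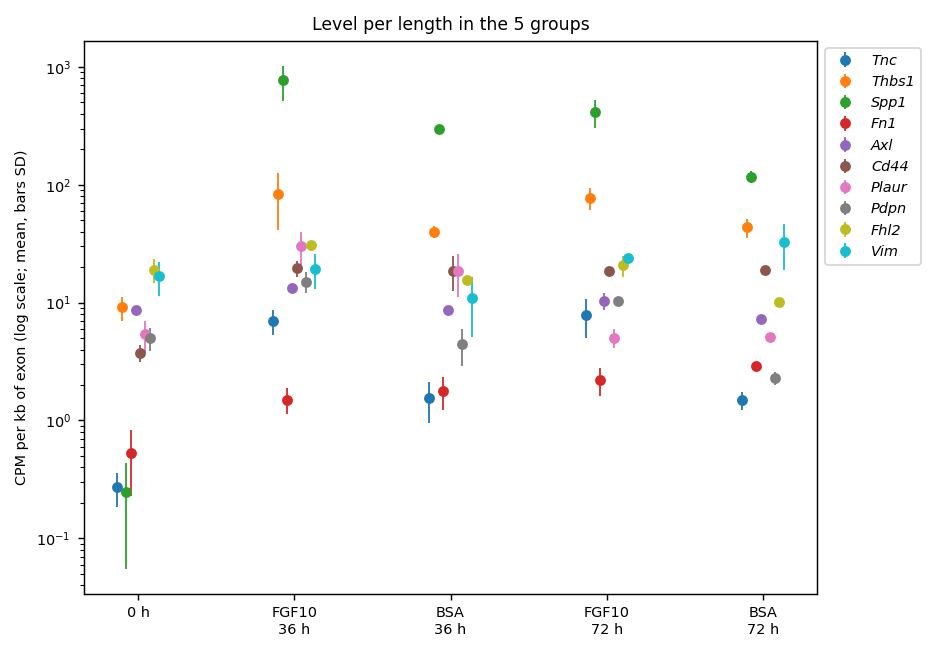
CPM per kb of exon (log scale) of the 10 genes in the 5 groups, as the mean with bars for the SD over 3 libraries. Spp1 lies at 0.246 at 0 h and between 116.9 and 768 afterwards, while Fn1 stays below 3 in every group.

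How alike the profiles were was measured as the root mean square difference of log2 CPM over the 15 libraries, with each gene centred on its own mean. Among the 10 genes the closest pair was Axl and Fhl2, at 0.31, followed by Pdpn and Fhl2 at 0.56, Fn1 and Cd44 at 0.57 and Thbs1 and Cd44 at 0.58. Spp1 lay far from all the others, with Tnc nearest at 2.75. The standard deviation of a single gene over the libraries ran from 0.31 for Axl to 4.16 for Spp1, so a small distance is easier for a gene that moves little.

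Outside the 10, the nearest of 14174 genes to Fhl2 were the phosphatase gene Dusp7 at 0.23, the integrin chain gene Itga3 at 0.26 and Tcof1 at 0.26. Nearest to Pdpn were the WNT effector gene Tcf7 at 0.45, Hmgb1-ps2 and Ifitm3. Nearest to Tnc were Fam167a at 0.49, Slc12a3 and Lpar3. Nearest to Thbs1 were the sterol pathway gene Fdps at 0.38, the basal keratin gene Krt5 at 0.41 and Rdh10. Nearest to Spp1 were Gpx2, a glutathione peroxidase of epithelia, at 1.03 and the desmosomal cadherin gene Dsg3 at 1.50. These distances are large beside those of the other genes, but small beside the standard deviation of Spp1 itself, 4.16. Dsg3 averaged 23.9 ± 1.20 CPM in FGF10 36 h, 9.53 ± 0.42 in BSA 36 h, 39.6 ± 13.7 in FGF10 72 h, 9.57 ± 1.24 in BSA 72 h and 0.042 ± 0.073 at 0 h. Nearest to Axl was Cdc27 at 0.15, to Cd44 Wdr38 at 0.30, to Fn1 AA914427 at 0.35, to Vim Arhgef15 at 0.41 and to Plaur H2bc14 at 0.56. The points share their libraries, and no p is attached to these distances.

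The other genes of these pathways were taken from 8 lists that held none of the 10. Of 120 listed genes 109 were tested. With FGF10 against BSA 10 rose and 1 fell at 36 h, and 9 rose and 2 fell at 72 h, beside the 2.34% and 5.99% of all genes called in either direction. Every adjusted p below is edgeR's quasi-likelihood p with Benjamini-Hochberg adjustment over all genes, and every level is the mean CPM ± SD of 3 libraries.

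**Figure D5:**
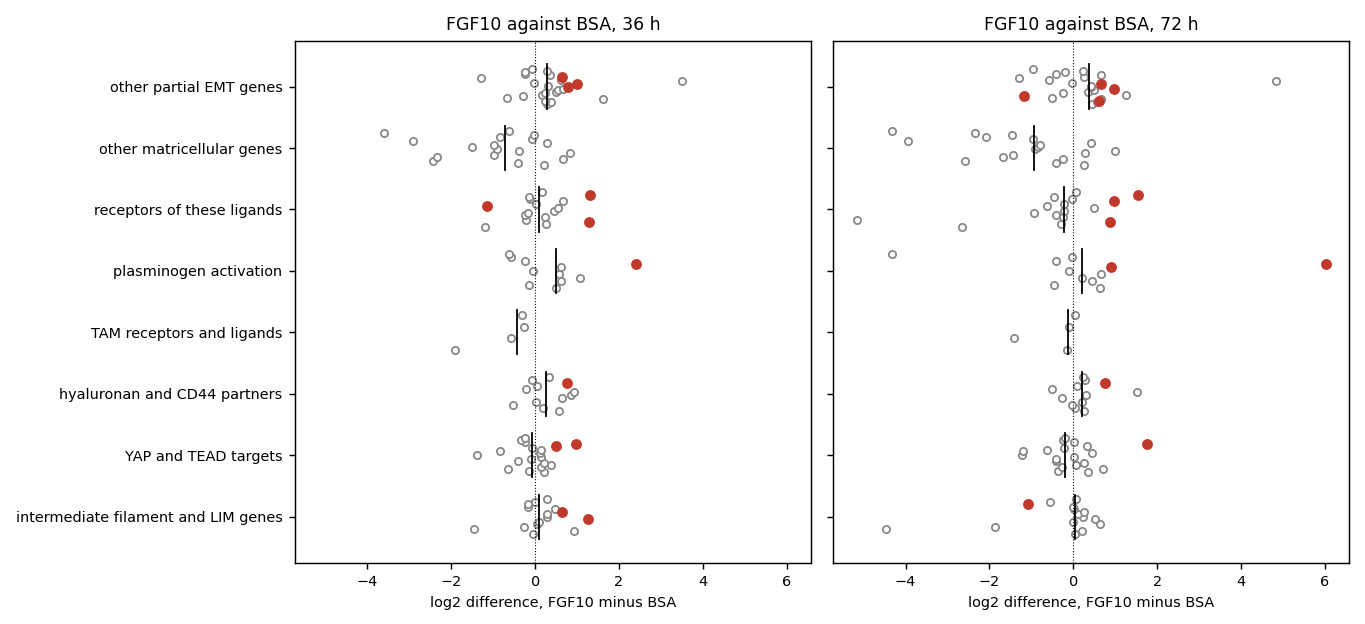
log2 difference, FGF10 minus BSA, of every tested gene of the 8 lists at 36 h and 72 h, with called genes filled and a bar at the median of each list. The other matricellular genes have medians of -0.73 and -0.94 with none filled, and Serpinb2 of the plasminogen list stands at 2.39 and 6.02.

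Of 24 other partial EMT genes, 3 rose and 0 fell at 36 h, with a median of 0.29. Lama3, which encodes a laminin chain of epithelial basement membranes, rose to 40.8 ± 1.57 CPM with FGF10, against 23.9 ± 5.95 CPM with BSA (0.77 ± 0.17, adjusted p = 0.0254), and the actin-binding LIM gene Pdlim7 to 122.7 ± 15.4 CPM, against 79.0 ± 5.02 CPM (0.64 ± 0.13, adjusted p = 0.0196). At 72 h 3 rose and 1 fell, with a median of 0.38. Among those that rose were the hemidesmosomal collagen gene Col17a1 (0.62 ± 0.16, adjusted p = 0.034) and Itgb6, an integrin chain that activates TGF-beta (0.97 ± 0.26, adjusted p = 0.0413). The secreted protease gene Htra1 fell to 100.8 ± 4.94 CPM with FGF10, against 229.1 ± 5.51 CPM with BSA (-1.18 ± 0.32, adjusted p = 0.0454).

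These calls were sensitive to leaving out single libraries, while every difference kept its direction. The differences of Col17a1 and Htra1 hardly moved in size, from 0.62 and -1.18 with all libraries. Calls over all genes fell as well, from 1087 at 72 h to between 148 and 559 without 1 of the 72 h libraries. At 36 h that of Lama3 was lost without BSA 36 h replicate 2 (0.64) or 3 (0.71) or FGF10 36 h replicate 1 (0.80), and that of Pdlim7 without BSA 36 h replicate 2 (0.61) or 3 (0.69). Both calls were lost with only the compared groups in the fit, at 0.76 for Lama3 and 0.63 for Pdlim7. At 72 h those of Col17a1 (0.59 to 0.64) and Htra1 (-1.21 to -1.14) were lost without any 1 of the 6 libraries compared. Leaving out FGF10 36 h replicate 3 or 4, or BSA 36 h replicate 2 or 3, ended the Htra1 call as well, at -1.18 in each. That of Itgb6 was lost without any 1 of the BSA 72 h libraries or FGF10 72 h replicate 3 or 4 (0.75 to 1.05). The calls of Col17a1 (0.62), Htra1 (-1.18) and Itgb6 (0.94) were also lost with 2_1 and 2_2 summed. That of Htra1 was lost with no filter on low counts as well (-1.18).

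Of 22 other matricellular genes 18 were tested, and 0 rose and 0 fell at either time in edgeR. Their medians were -0.73 at 36 h and -0.94 at 72 h, and 14 of the 18 lay lower with FGF10 at each time. At an unadjusted p under 0.05 there were 5 genes at 36 h and 9 at 72 h, where 18.7% and 23.5% of all genes tested passed. With limma voom 1 gene was called at 36 h, lower, and 8 at 72 h, 1 higher and 7 lower, where 7.8% and 26.6% of all genes were called. With DESeq2 3 were called at 36 h, 1 higher and 2 lower, and 3 at 72 h, all lower, where 6% and 10.9% of all genes were called. Ccn5, a growth-restraining CCN family gene, stood at 23.5 ± 10.9 CPM with FGF10 and 118.8 ± 57.5 CPM with BSA at 36 h (-2.34 ± 0.56, adjusted p = 0.0528). Tnxb, the tenascin of connective tissue, stood at 3.39 ± 3.37 CPM with FGF10 and 42.2 ± 29.3 CPM with BSA at 36 h (-3.61 ± 0.86, adjusted p = 0.0547). At 72 h Sparcl1, a gene of stroma and vessels, stood at 1.37 ± 2.1999 CPM with FGF10 and 21.8 ± 11.3 CPM with BSA (-3.93 ± 1.17, adjusted p = 0.0714). For Vtn, which encodes vitronectin, 3 counts were found in the FGF10 72 h libraries and 81 in the BSA 72 h libraries, giving a ratio of 0.045 (exact 95% interval 0.0092 to 0.138, counting error only, adjusted p = 0.0874).

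Whether these genes were called changed with single libraries too, in some cases with the difference hardly moved. Ccn5 was called without 0 h replicate 1 or 2 (-2.34 in each, as with all libraries) or BSA 36 h replicate 1 (-2.68). Tnxb was called without 0 h replicate 1 (-3.60), without FGF10 36 h replicate 3 (-4.80), without replicate 4 of FGF10 72 h (-3.61) and without replicate 1 of BSA 36 h (-4.09), and Sparcl1 without FGF10 72 h replicate 2 (-7.58). Tnc and Thbs1 thus lay higher with FGF10 while the median of the other matricellular genes lay lower. At 72 h the fibroblast marker sum was also lower with FGF10, at 29.7 to 70.7 CPM, against 92.9 to 161.5 CPM with BSA, and its part in the values of the list was not tested.

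Of 16 receptors of the 4 ligands, 2 rose and 1 fell at 36 h. Itga3, the integrin chain that binds laminin and thrombospondin, rose to 112.5 ± 12.5 CPM with FGF10, against 46.3 ± 3.38 CPM with BSA (1.28 ± 0.16, adjusted p = 0.00141). Sdc1, a heparan sulfate proteoglycan of epithelia, rose to 477 ± 44.5 CPM, against 193.1 ± 11.8 CPM with BSA (1.30 ± 0.18, adjusted p = 0.00272). Itgb3, the integrin chain through which osteopontin and vitronectin signal, fell to 14.4 ± 3.22 CPM, against 32.1 ± 11.8 CPM with BSA (-1.15 ± 0.26, adjusted p = 0.0325). At 72 h 3 rose and 0 fell in edgeR. They were Sdc1 (1.55 ± 0.19, adjusted p = 0.00061), Itga3 (0.88 ± 0.16, adjusted p = 0.00699) and Itgb6, given above. The median of the list was 0.08 at 36 h and -0.23 at 72 h. Limma voom called 5 higher and 1 lower at 36 h, and 4 higher and 6 lower at 72 h. DESeq2 called 3 higher and 1 lower at 36 h, and 4 higher and 2 lower at 72 h. The shares of all genes for these tools are given above. The Sdc1 calls at both times and the Itga3 call at 36 h held in all 23 alternatives. The Itga3 call at 72 h was lost without FGF10 72 h replicate 4 (0.74). The Itgb3 call was lost without BSA 36 h replicate 1 (-0.82) or 3 (-1.20), FGF10 36 h replicate 3 (-1.06) or 4 (-1.07), or any 1 of the BSA 72 h libraries (-1.16 to -1.15). It was also lost with 2_1 and 2_2 summed (-1.15) and with only the compared groups in the fit (-1.16).

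For the pathway of Plaur, of 13 plasminogen activation genes 11 were tested. In edgeR 1 rose at 36 h and 2 at 72 h, with none falling, and the median was 0.49 and 0.21. Limma voom called 2 higher and 0 lower at 36 h, and 4 higher and 2 lower at 72 h. DESeq2 called 2 higher at 36 h and 3 at 72 h, with 0 lower, beside the shares of all genes given above. Serpinb2, an inhibitor of urokinase, rose to 7.21 ± 1.32 CPM with FGF10 at 36 h, against 1.36 ± 0.66 CPM with BSA (2.39 ± 0.52, adjusted p = 0.0331). The FGF10 72 h libraries held 76 counts of it and the BSA 72 h libraries 1, giving a ratio of 93.3 (exact 95% interval 16.2 to 3731, counting error only, adjusted p = 0.00505), and it had 0 counts at 0 h. S100a10, the annexin partner that binds plasminogen, rose to 670 ± 53.6 CPM at 72 h, against 361 ± 37.8 CPM with BSA (0.89 ± 0.21, adjusted p = 0.0247). The Serpinb2 call at 36 h was lost without BSA 36 h replicate 1 (2.201) or 3 (2.22), BSA 72 h replicate 2_1 (2.40) or 2_2 (2.39), or FGF10 36 h replicate 1 (2.51) or 3 (2.24). That of S100a10 was lost without any 1 of the 6 libraries compared (0.81 to 0.96) and with 2_1 and 2_2 summed (0.93).

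Of 4 TAM genes, the other receptors of Axl's family and their ligands, 0 rose and 0 fell at either time in edgeR, with 1 at an unadjusted p under 0.05 at each time and 1 called lower by limma voom and by DESeq2 at each, beside the shares of all genes given for these tools above. Gas6, the ligand of AXL, stood at 129.0 ± 67.5 CPM with FGF10 and 482 ± 288 CPM with BSA at 36 h (-1.90 ± 0.51, adjusted p = 0.0725), and was called without BSA 36 h replicate 1 (-2.30). Tyro3 stood at 12.8 ± 3.08 CPM with FGF10 and 15.96 ± 2.74 CPM with BSA at 36 h (-0.32 ± 0.20, adjusted p = 0.402). Mertk, the receptor of phagocytes, stood at 0.854 ± 0.296 CPM with FGF10 and 2.27 ± 0.79 CPM with BSA at 72 h (-1.42 ± 0.42, adjusted p = 0.0598), and was called without FGF10 36 h replicate 3 or 4 (-1.42 in each). Pros1, which encodes the ligand protein S, stood at 41.1 ± 4.76 CPM with FGF10 and 44.3 ± 3.44 CPM with BSA at 72 h (-0.11 ± 0.17, adjusted p = 0.756).

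Of 15 genes of hyaluronan and CD44 partners 12 were tested, and Msn was the 1 called at each time in edgeR. The median of the list was 0.26 at 36 h and 0.21 at 72 h. Limma voom called 2 higher and 1 lower at 36 h, and 4 higher and 1 lower at 72 h. DESeq2 called 2 higher at 36 h and 1 at 72 h, with 0 lower, beside the shares of all genes given above. Msn encodes moesin, which ties CD44 and podoplanin to actin. It stood at 221.9 ± 60.3 CPM with FGF10 and 131.9 ± 13.3 CPM with BSA at 36 h (0.75 ± 0.18, adjusted p = 0.0426), and at 181.2 ± 30.4 CPM with FGF10 and 107.6 ± 8.31 CPM with BSA at 72 h (0.75 ± 0.18, adjusted p = 0.0266). The 36 h call was lost without any 1 of the BSA libraries of either time, 0 h replicate 2 or 4, either replicate 1 or 3 of FGF10 36 h, or replicate 2 or 3 of FGF10 72 h (0.57 to 0.83). The 72 h call was lost without any 1 of the BSA 72 h libraries or FGF10 72 h replicate 3 or 4 (0.62 to 0.81). With 2_1 and 2_2 summed both Msn calls were lost, at 0.75 for 36 h and 0.72 for 72 h. With only the compared groups in the fit the 36 h call was lost (0.74).

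Of 20 YAP and TEAD targets 19 were tested, of which 2 rose at 36 h and 1 at 72 h, with none falling in edgeR. The median of the list was -0.08 at 36 h and -0.19 at 72 h. Limma voom called 2 higher and 0 lower at 36 h, and 3 higher and 4 lower at 72 h. DESeq2 called 2 higher at 36 h and 1 at 72 h, with 0 lower, beside the shares of all genes given above. Nt5e, an ectonucleotidase, stood at 16.9 ± 2.44 CPM with FGF10 and 8.59 ± 0.99 CPM with BSA at 36 h (0.97 ± 0.22, adjusted p = 0.0304). At 72 h it stood at 28.7 ± 9.05 CPM with FGF10 and 8.50 ± 0.092 CPM with BSA (1.76 ± 0.22, adjusted p = 0.000889), a call that held in all 23 alternatives. The membrane repair gene Myof rose at 36 h to 67.7 ± 8.57 CPM with FGF10, against 48.3 ± 4.88 CPM with BSA (0.49 ± 0.12, adjusted p = 0.0426). The Nt5e call at 36 h was lost without BSA 36 h replicate 2 (0.88) or 3 (1.02), BSA 72 h replicate 2_1 (0.97), or FGF10 36 h replicate 1 (0.98) or 3 (0.86). That of Myof was lost without any 1 of 12 libraries, namely all of BSA 36 h, BSA 72 h and FGF10 72 h, 0 h replicates 2 and 4 and FGF10 36 h replicate 3 (0.38 to 0.57). Both 36 h calls were also lost with only the compared groups in the fit, at 0.97 for Nt5e and 0.48 for Myof. That of Myof was lost as well with 2_1 and 2_2 summed and with no filter on low counts (0.49 in each).

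Of 16 intermediate filament and LIM genes other than Vim and Fhl2, 15 were tested. At 36 h Pdlim7, given above, and Nes rose. Nes encodes nestin, a partner of vimentin, and stood at 8.71 ± 2.06 CPM with FGF10 and 3.63 ± 0.90 CPM with BSA (1.26 ± 0.28, adjusted p = 0.0281). At 72 h Synm, which encodes the vimentin-binding synemin, fell to 3.02 ± 0.69 CPM with FGF10, against 6.36 ± 0.90 CPM with BSA (-1.08 ± 0.21, adjusted p = 0.0116). The Nes call was lost without BSA 36 h replicate 1 (1.11), 2 (1.24) or 3 (1.46), or with FGF10 36 h replicate 4 left out (1.07). It was also lost with only the compared groups in the fit (1.25). That of Synm was lost without BSA 72 h replicate 3 (-0.96) or FGF10 72 h replicate 4 (-0.90).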

How the data were processed

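The values were raw fragment counts per gene, deposited by the authors as 1 table of 15 libraries. Per the file headers, featureCounts 2.0.1 made it from read pairs over exons, without regard to strand and leaving out fragments over several genes or places. Gene positions and exon length are those of the deposited table, per the file headers. The submitters' processing notes list cutadapt 1.9.1, HISAT2 2.2.1, HTSeq, DESeq2 and the build GRCm39. The labels' protocols name a stranded poly(A) kit. Titles of the FGF10 72 h libraries read FGF0, and the treatment label was followed.

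Genes passing filterByExpr (minimum count 10, minimum total 15) were scaled by the trimmed mean of M-values and tested with edgeR 4.0.16 in R 4.3.3, in 1 robust quasi-likelihood fit of 5 groups with 10 residual degrees of freedom. The median prior was 5.03 degrees of freedom and the common biological coefficient of variation 0.234. Each standard error was taken as the absolute log2 difference divided by the root of its F value. The fit was tested on simulated counts. Likeness used log2 CPM with a prior count of 2. The alternatives used no filter or a filter of 10 counts in 3 libraries, DESeq2 size factors, a replicate block, libraries 2_1 and 2_2 summed, only the groups compared, limma 3.58.1 voom with sample weights, DESeq2 1.42.0 and leaving out each library. Marker sums are summed CPM per library.

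The 10 genes, the lists, the tests and the alternatives were chosen with earlier results of these data known. Named were all 10 genes, up to 4 called genes of each list with the smallest p, or 2 where none was called, and the 3 nearest genes, leaving out predicted names. For 1 gene of the partial EMT list, values are not reported here. Replicate numbers were not taken as pairs: the deviations of same-numbered libraries from their group means correlated at 0.449 and 0.286 at 36 h, but at 0.02, 0.0005 and 0.078 at 72 h.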

Additional observations from a re-analysis of the deposited data

How the results depend on the processing

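No difference turned its direction while called. Counts of the 10 genes against 0 h, of FGF10 against BSA at 72 h and of the change between times stayed within 1.5 times under all 23 alternatives. At 36 h the count of the 10 genes called with FGF10 against BSA was 5, and 3 with only the groups compared, and 3 to 6 leaving out 1 library. Between 72 h and 36 h in the FGF10 arm it was 1, but 3 in limma voom and 3 in DESeq2, and 1 to 2 leaving out 1 library, where 346 genes in all were called, and 874 in limma voom and 779 in DESeq2. In the BSA arm it was 2, but 1 with DESeq2 size factors, 1 with the replicate block, 0 with 2_1 and 2_2 summed, 6 in limma voom and 4 in DESeq2, and 0 to 3 leaving out 1 library. The calls over all genes there were 85, with 73 under DESeq2 size factors, 107 with the block, 0 summed, 2586 in limma voom and 584 in DESeq2. Of the list genes 11 were called at 36 h, but 3 with only the groups compared, 22 in limma voom and 20 in DESeq2, and 3 to 17 leaving out 1 library. Calls over all genes were 425, and 78, 1415 and 1088 under those alternatives and 127 to 852 leaving out 1 library. At 72 h 11 were called, but 5 with 2_1 and 2_2 summed, 49 with only the groups compared, 48 in limma voom and 23 in DESeq2, and 3 to 15 leaving out 1 library. Calls over all genes were 1087, and 277, 5025, 4824 and 1977 under those alternatives and 148 to 1950 leaving out 1 library. The list counts thus moved in the same direction as the calls over all genes. The cause of these moves was not tested. With the replicate block, Spp1 at 36 h was not called (1.15), so that 4 of the 10 genes were, and 14 list genes were called at 36 h and 11 at 72 h. The block also ended the calls of Spp1 in the BSA arm (-1.32), Msn at 36 h (0.73), Htra1 (-1.13) and Itgb6 (0.93), and led to calls of Ccn5 (-2.03), Tnxb (-3.08) and Gas6 (-1.60) at 36 h. The median of all genes stayed between -0.03 and 0.03 under every alternative. Depth limits Spp1 at 0 h and Serpinb2, which had 24 and 0 counts there in all.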

Other observations

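Pla2g7, which encodes a secreted phospholipase, was the gene next to Wdr38 in likeness to Cd44, at 0.31. It averaged 115.0 ± 29.6 CPM in FGF10 36 h and 110.1 ± 21.4 CPM in BSA 36 h, 150.3 ± 14.2 CPM in FGF10 72 h and 137.7 ± 11.5 CPM in BSA 72 h, and 23.4 ± 3.44 CPM at 0 h (SD, n = 3). Gpx2, the gene nearest to Spp1, averaged 955 ± 432 CPM in FGF10 36 h and 609 ± 277 CPM in BSA 36 h, 669 ± 74.3 CPM in FGF10 72 h and 334 ± 28.2 CPM in BSA 72 h, and 2.48 ± 2.06 CPM at 0 h.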
